A study of Mus musculus with 4 samples.

Results

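Hypoxia-inducible factor (HIF) signalling was described across 10 genes, in polyadenylated RNA of mouse CD4 T cells sorted into a CCR7loCD137hi and a CCR7hiCD137lo population. The 10 genes were chosen by name for their place in the pathway, with earlier results of these data known. They were the factor Hif1a, the degradation adaptor Vhl, the prolyl hydroxylases Egln1, Egln2 and Egln3, and hypoxia targets Vegfa, Bnip3, Pdk1, P4ha1 and Ndrg1. Each had 1 row in every table, so all 10 of the 23284 gene symbols were found, and all 10 were among the 10496 genes tested, those with a mean of at least 1 FPKM (fragment counts scaled by transcript length and library depth). CD4 T cells from the spleens of BALB/c mice, which are inbred, had been grown under Th1 conditions with 15 ng/ml IL-2 and 10 ng/ml IL-12, cytokines that favour T cell growth and the interferon-gamma-producing fate. The culture lasted 4 days according to one field of the labels and 5 days according to another, and both populations came out of it by flow sorting on CCR7, a lymph node homing receptor, and CD137, a costimulatory receptor of activated cells. Each population had 2 libraries, numbered 1 and 2. No genotype besides the strain, no age and no oxygen level is given in the sources used here, and nothing there says whether the numbered libraries came from separate mice or cultures, so p-values measure only the spread between these libraries, which may be technical.

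HIF is a transcription factor made of an alpha subunit such as HIF-1alpha, encoded by Hif1a, and the partner ARNT. In well-oxygenated cells the EGLN enzymes hydroxylate prolines of the alpha subunit, the VHL protein then recognises it and it is degraded. When oxygen is short, or when strong growth signals raise its synthesis as in activated T cells, the protein accumulates and switches on genes of glycolysis, blood vessel growth, mitophagy and collagen modification. Egln1 and Egln3 are themselves HIF targets, which closes a feedback loop. Since the control acts mainly on the protein, the mRNA level of Hif1a does not measure HIF activity.

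HIF binds DNA at a short core, ACGTG or GCGTG. RefSeq (build GRCm38.p6) gave a promoter for 9 of the 10 genes, Ndrg1 not among them, and both cores were searched on both strands of the 250 bases before each start. Below are the upstream sequences of 4 members, 5' to 3' on the strand of the gene, with each core in capitals, also where it lies on the other strand and then reads CACGT or CACGC. Bnip3 is shown because its libraries did not overlap between the populations, P4ha1 for its several cores, Egln3 for its wide spread between replicate numbers and Pdk1 for its lack of a single direction. The Bnip3 stretch is chr7:138909520-138909756, minus strand, and ends where a longer GENCODE transcript begins. P4ha1 is chr10:59323046-59323295, plus strand. Egln3 is chr12:54203875-54204124, minus strand, and Pdk1 is chr2:71872974-71873223, plus strand.
Bnip3: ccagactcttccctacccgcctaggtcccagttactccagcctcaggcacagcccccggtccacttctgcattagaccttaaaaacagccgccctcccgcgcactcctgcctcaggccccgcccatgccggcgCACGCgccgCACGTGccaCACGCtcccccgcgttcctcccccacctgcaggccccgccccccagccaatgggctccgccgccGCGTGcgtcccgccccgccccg
P4ha1: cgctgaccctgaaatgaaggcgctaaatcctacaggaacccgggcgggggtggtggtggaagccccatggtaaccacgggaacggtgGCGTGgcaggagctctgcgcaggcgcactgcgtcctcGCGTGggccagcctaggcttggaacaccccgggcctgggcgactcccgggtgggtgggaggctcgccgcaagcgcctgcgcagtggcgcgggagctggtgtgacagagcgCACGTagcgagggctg
Egln3: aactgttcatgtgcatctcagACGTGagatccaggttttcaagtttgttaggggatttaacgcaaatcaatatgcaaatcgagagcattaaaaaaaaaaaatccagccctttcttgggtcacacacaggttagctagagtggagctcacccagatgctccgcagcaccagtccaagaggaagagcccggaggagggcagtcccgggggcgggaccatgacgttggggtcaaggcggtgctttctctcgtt
Pdk1: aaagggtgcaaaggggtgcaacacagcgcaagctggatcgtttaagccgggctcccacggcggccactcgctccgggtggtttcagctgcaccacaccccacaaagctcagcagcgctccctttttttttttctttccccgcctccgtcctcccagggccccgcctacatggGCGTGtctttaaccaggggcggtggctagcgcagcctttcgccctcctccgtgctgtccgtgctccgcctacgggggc
Bnip3 held 5 cores, of which an ACGTG on each strand overlapped in the palindrome CACGTG. P4ha1 held 3, and Egln3 and Pdk1 held 1 each. Among the members not printed, Hif1a had 3 cores, of which an ACGTG on each strand overlapped as in Bnip3. Egln1 had 2, and the one nearer the start lies inside a longer GENCODE transcript. Egln2 had 4, while these letters did not occur in the windows of Vhl and Vegfa. A core was thus present for 7 of 9 members. The same cores were found in 59.3% of 7465 promoters of genes tested and in 38.6% of all 32851 windows of the same length. Short cores of this kind are therefore common. The 7465 were the first listed window of each gene, whereas each member had the window nearest to its start in the deposited coordinates. A match is a description of the letters and not a measured binding site.

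**Figure D1:**
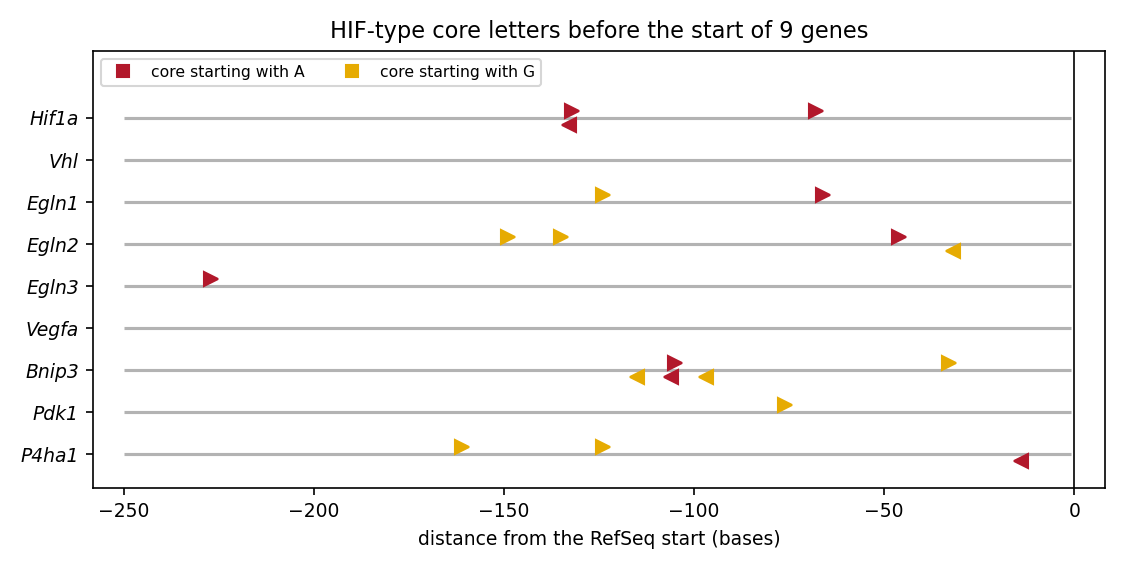
Positions of the cores ACGTG and GCGTG in the 250 bases before the RefSeq start of 9 genes, with distance from the start in bases on the x axis. Right-pointing marks lie on the strand of the gene and left-pointing marks on the other strand. Bnip3 has 5 marks, while the lines of Vhl and Vegfa carry none.

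All 10 genes were measured well above the detection floor. The lowest value was 6.24 FPKM, Vegfa in CCR7hiCD137lo replicate 1, and the highest 297.5 FPKM, Egln3 in CCR7loCD137hi replicate 2. Depth, estimated from low values, was 11600000 and 6300000 fragments in CCR7loCD137hi replicates 1 and 2 and 20700000 and 12700000 in CCR7hiCD137lo replicates 1 and 2. At that depth 3 fragments on a transcript of 1 kb would give 0.145 to 0.474 FPKM, a floor for counting error only. The sort was visible in its own genes, with Tnfrsf9, which encodes CD137, at 158.2 and 183.8 FPKM in CCR7loCD137hi and at 0.961 and 6.25 FPKM in CCR7hiCD137lo. Defining T cell genes (Cd3e, Cd4 and 6 others) summed to 1545 to 1842 FPKM in CCR7loCD137hi and 1628 to 1707 FPKM in CCR7hiCD137lo. The 5 B cell markers used here summed to 3.96 and 0.50 FPKM in CCR7loCD137hi replicates 1 and 2, against 0.0917 and 0.145 FPKM in CCR7hiCD137lo. All 5 were above 0 in CCR7loCD137hi replicate 1, while Ms4a1, Pax5 and Cd22 were at 0 in both CCR7hiCD137lo libraries. The 6 CD8 T and NK cell markers summed to 33.5 to 41.3 against 12.1 to 21.8 FPKM, mostly from Eomes, which Th1 cells can also express, and Ncr1, Klrb1c and Klra1 were at 0 in both CCR7hiCD137lo libraries. Cd8a stood at 3.68 and 0.218 FPKM in CCR7loCD137hi replicates 1 and 2, against 0 and 0.0265 FPKM in CCR7hiCD137lo, and Cd8b1 at 8.48 and 3.78 against 2.63 and 4.56 FPKM. The 9 myeloid and dendritic markers in the tables summed to 0.359 and 0.846 FPKM in CCR7loCD137hi and 0.0648 and 0.126 FPKM in CCR7hiCD137lo, with Csf1r, Flt3 and Siglech at 0 in every library. The 9 erythroid and platelet markers summed to 1.27 and 2.29 FPKM in CCR7loCD137hi and 0.306 and 0.536 FPKM in CCR7hiCD137lo. The part of other cells in the values below was not tested.

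Hif1a transcripts (chr12:73907867-73947530) were abundant in both populations. Hif1a stood at 101.2 and 98.9 FPKM in CCR7loCD137hi replicates 1 and 2, against 67.9 and 93.6 FPKM in CCR7hiCD137lo replicates 1 and 2. The groups did not overlap, but CCR7hiCD137lo replicate 2 came close to the CCR7loCD137hi libraries, and replicate 1 of that population was the single low library. The difference was 1.49-fold within number 1 and 1.06-fold within number 2. On the log2(FPKM + 1) scale used for every test, which understates changes of low values, the log2 fold change was 0.32 (95% interval −0.17 to 0.82), and limma's test over all genes did not call it (adjusted p = 0.733). The log2 fold change was 0.096 without CCR7hiCD137lo replicate 1 and 0.55 without CCR7hiCD137lo replicate 2. In bulk RNA, fewer cells of one type and less RNA per cell cannot be told apart. An antisense gene, Gm15283, shares 330 bases of Hif1a exons, and a gene on the same strand, Gm49321, shares 148. It is not given whether counting used the strand, so reads of Gm15283 may be included. Reads of Gm49321 on the shared bases may be included either way, since it has the strand of Hif1a.

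Vhl (chr6:113624021-113631633), which encodes the recognition subunit of the ubiquitin ligase for HIF-alpha, was expressed at a far lower level per length than Hif1a in every library. It stood at 9.53 and 15.1 FPKM in CCR7loCD137hi and at 7.77 and 10.7 FPKM in CCR7hiCD137lo. Within each number the CCR7loCD137hi library was the higher one, but the groups overlapped, because CCR7loCD137hi replicate 1 lay below CCR7hiCD137lo replicate 2. Its log2 fold change was 0.36 (95% interval −0.37 to 1.10, limma adjusted p = 0.788). It was 0.67 without CCR7loCD137hi replicate 1 and 0.055 without CCR7loCD137hi replicate 2.

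The 3 prolyl hydroxylase genes, which encode the oxygen sensors of the pathway, differed widely from each other in level and in spread. Egln1 (chr8:124908587-124949254), the main hydroxylase of HIF-1alpha in most cells, stood at 56.7 and 78.2 FPKM in CCR7loCD137hi and at 51.3 and 62.0 FPKM in CCR7hiCD137lo. The CCR7loCD137hi library was higher within each number and the groups overlapped, with a log2 fold change of 0.24 (95% interval −0.32 to 0.79, limma adjusted p = 0.816). It was 0.46 without CCR7loCD137hi replicate 1 and 0.0069 without CCR7loCD137hi replicate 2. Egln2 (chr7:27158658-27166802), which is not known as a hypoxia target, had the flattest profile of the 10 genes between the populations, at 17.3 and 20.2 FPKM in CCR7loCD137hi and at 16.3 and 19.8 FPKM in CCR7hiCD137lo. Its log2 fold change was 0.06 (95% interval −0.38 to 0.49, limma adjusted p = 0.953). Egln3 (chr12:54178981-54203874), the member of the family most strongly induced by hypoxia in many cell types, stood at 103.1 and 297.5 FPKM in CCR7loCD137hi and at 75.3 and 227.8 FPKM in CCR7hiCD137lo. In both populations the library numbered 2 was the high one, by 2.89-fold in CCR7loCD137hi and 3.03-fold in CCR7hiCD137lo. Between the populations the difference was much smaller and nearly equal in both numbers, at 1.37-fold in number 1 and 1.31-fold in number 2. The spread within groups left the log2 fold change of 0.42 with a wide 95% interval, −1.54 to 2.37 (limma adjusted p = 0.910). Its sign turned without CCR7loCD137hi replicate 2 (−0.34) or without CCR7hiCD137lo replicate 1 (−0.38), fits that hold the numbers unequally.

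**Figure D2:**
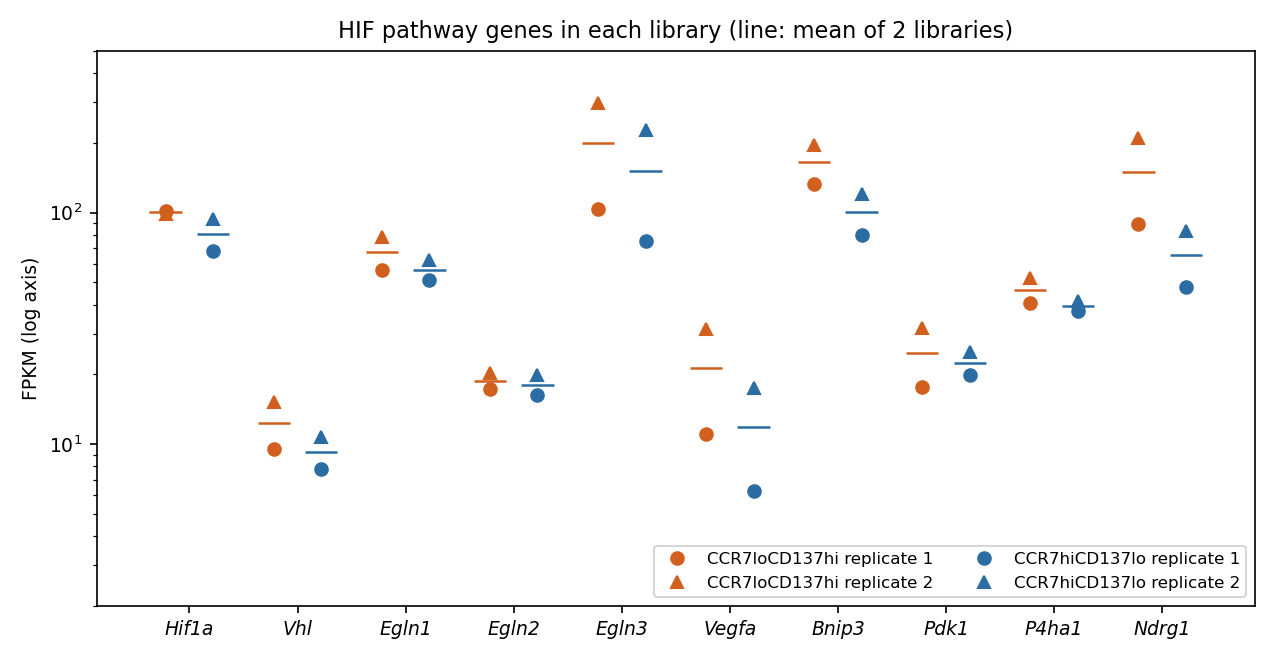
FPKM of the 10 genes on a log axis, with CCR7loCD137hi libraries in orange on the left and CCR7hiCD137lo libraries in blue on the right of each gene. Circles are replicate 1, triangles replicate 2 and lines the mean of 2 libraries. Except for Hif1a in CCR7loCD137hi, each triangle lies above the circle of its population, with the widest gaps for Egln3 and Vegfa.

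Bnip3, Ndrg1 and Vegfa had the largest population differences among the 10 genes in the fit to all 4 libraries. Bnip3 (chr7:138890836-138909506), which encodes a mitochondrial protein that acts in mitophagy and cell death, stood at 133.4 and 196.0 FPKM in CCR7loCD137hi and at 80.0 and 120.3 FPKM in CCR7hiCD137lo. The CCR7loCD137hi libraries were the 2 highest, with a difference of 1.67-fold in number 1 and 1.63-fold in number 2. Its log2 fold change of 0.72 (95% interval −0.05 to 1.48) had the smallest unadjusted p of the 10, at 0.0602, and an adjusted p of 0.634 in limma's test. Ndrg1 (chr15:66929318-66969641), a gene of cell stress and differentiation, stood at 89.0 and 210.8 FPKM in CCR7loCD137hi and at 47.5 and 83.3 FPKM in CCR7hiCD137lo. The groups did not overlap, though only narrowly, since CCR7loCD137hi replicate 1 was just above CCR7hiCD137lo replicate 2. The difference was 1.87-fold in number 1 and 2.53-fold in number 2, and the log2 fold change 1.11 (95% interval −0.22 to 2.44, limma adjusted p = 0.679). Vegfa (chr17:46016993-46032377), which encodes vascular endothelial growth factor A, stood at 11.1 and 31.5 FPKM in CCR7loCD137hi and at 6.24 and 17.4 FPKM in CCR7hiCD137lo. Its groups overlapped, yet within numbers the difference was 1.77-fold and 1.81-fold. The libraries numbered 2 exceeded those numbered 1 by 2.84-fold in CCR7loCD137hi and 2.79-fold in CCR7hiCD137lo, and the log2 fold change was 0.78 (95% interval −0.98 to 2.53, limma adjusted p = 0.808). It dropped to 0.064 without CCR7loCD137hi replicate 2, to 0.10 when CCR7hiCD137lo replicate 1 was left out, and was 1.49 without CCR7loCD137hi replicate 1. Over the same fits Bnip3 ranged between 0.42 and 1.01 and Ndrg1 between 0.49 and 1.73. Antisense genes share 504 exonic bases with Bnip3 and 419 and 137 with Ndrg1, so part of these reads could be theirs.

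P4ha1 and Pdk1, targets that act in collagen modification and in fuel use, had smaller differences. P4ha1 (chr10:59323296-59373304), a catalytic subunit of collagen prolyl 4-hydroxylase, stood at 40.5 and 52.1 FPKM in CCR7loCD137hi and at 37.4 and 41.4 FPKM in CCR7hiCD137lo. The CCR7loCD137hi library was higher within each number, and the groups overlapped by less than 1 FPKM, with a log2 fold change of 0.22 (95% interval −0.23 to 0.67, limma adjusted p = 0.796). It was 0.40 without CCR7loCD137hi replicate 1 and 0.040 without CCR7loCD137hi replicate 2. Pdk1 (chr2:71873272-71903858), a kinase that keeps pyruvate out of the mitochondrial citric acid cycle, stood at 17.6 and 31.7 FPKM in CCR7loCD137hi and at 19.8 and 24.9 FPKM in CCR7hiCD137lo. It was the exception in direction, at 0.891-fold within number 1 and 1.28-fold within number 2. Its log2 fold change was 0.09 (95% interval −0.74 to 0.92, limma adjusted p = 0.960), and the sign turned without CCR7loCD137hi replicate 2 (−0.32) or without CCR7hiCD137lo replicate 1 (−0.067).

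Over the 10 genes, none was called by limma at an adjusted p of 0.05 (adjusted p 0.634 to 0.960) and 0 had an unadjusted p under 0.05. Of all genes tested, limma called 6, or 0.0572%, and 8.13% had an unadjusted p under 0.05. With 2 libraries in each group, the smallest two-sided p of an exact permutation test is 0.333. The intervals of Vegfa, Egln3 and Ndrg1 reach from below 0 to a log2 fold change above 2, so these libraries do not show that the populations were alike. Within replicate numbers 9 of the 10 were higher in CCR7loCD137hi in number 1 and all 10 in number 2, and 9 of 10 were higher in both, against 33.0% of all genes tested. None of the 10 was lower in both, against 35.9%. The CCR7loCD137hi libraries were the 2 highest for 3 of 10, namely Hif1a, Bnip3 and Ndrg1, against 16.6% of all genes, and the 2 lowest for 0 of 10, against 21.5%. All 10 were fitted above 0, against 47.9% of all genes. Since the genes were chosen with earlier results of these data known, these shares only describe them. The median log2 fold change was 0.34, against −0.01 over all genes tested, and it was 0.36 in number 1 and 0.36 in number 2. Without CCR7loCD137hi replicate 2 the median was 0.048 and without CCR7hiCD137lo replicate 1 it was 0.10, with 7 of 10 genes fitted above 0 in each. It was 0.58 without CCR7loCD137hi replicate 1 and 0.56 without CCR7hiCD137lo replicate 2, with all 10 above 0.

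**Figure D3:**
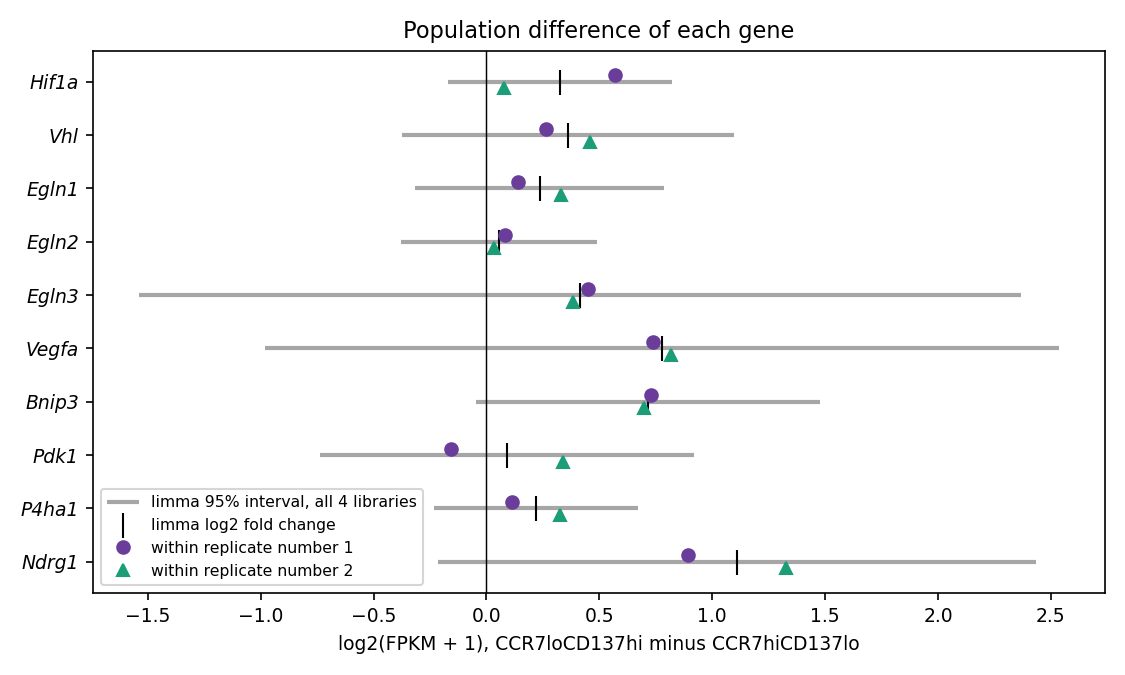
Population difference of each gene on the log2(FPKM + 1) scale, CCR7loCD137hi minus CCR7hiCD137lo, with circles for replicate number 1, triangles for replicate number 2, a tick for the limma fit and a grey bar for its 95% interval. All triangles and all circles but that of Pdk1 lie above 0, and every interval includes 0.

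The replicate number was a second source of spread. For 7 of the 10 genes the difference between numbers was larger than that between populations, not far from the 56.3% of all genes tested. Libraries numbered 2 lay above those numbered 1 in both populations for 9 of 10 genes, against 44.7% of all genes. Hif1a was the exception, at 98.9 FPKM in number 2 and 101.2 FPKM in number 1 of CCR7loCD137hi. The mean difference between numbers was 1.55 for Egln3, 1.39 for Vegfa and 1.02 for Ndrg1 on the log2(FPKM + 1) scale, and its median over the 10 genes was 0.58 in CCR7loCD137hi and 0.44 in CCR7hiCD137lo. Over all genes tested these medians were 0.03 and 0.08. The labels do not say what the numbers stand for. In each population the library numbered 2 was the shallower one, and the part of depth in these differences was not tested. For Egln3, Vegfa and Bnip3 the population difference was nearly the same in both numbers, apart by 0.06, 0.08 and 0.03 on this scale, although Egln3 and Vegfa themselves were nearly 3-fold apart between numbers. For Hif1a it was smaller in number 2 by 0.49, and for Pdk1 and Ndrg1 larger by 0.50 and 0.44.

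**Figure D4:**
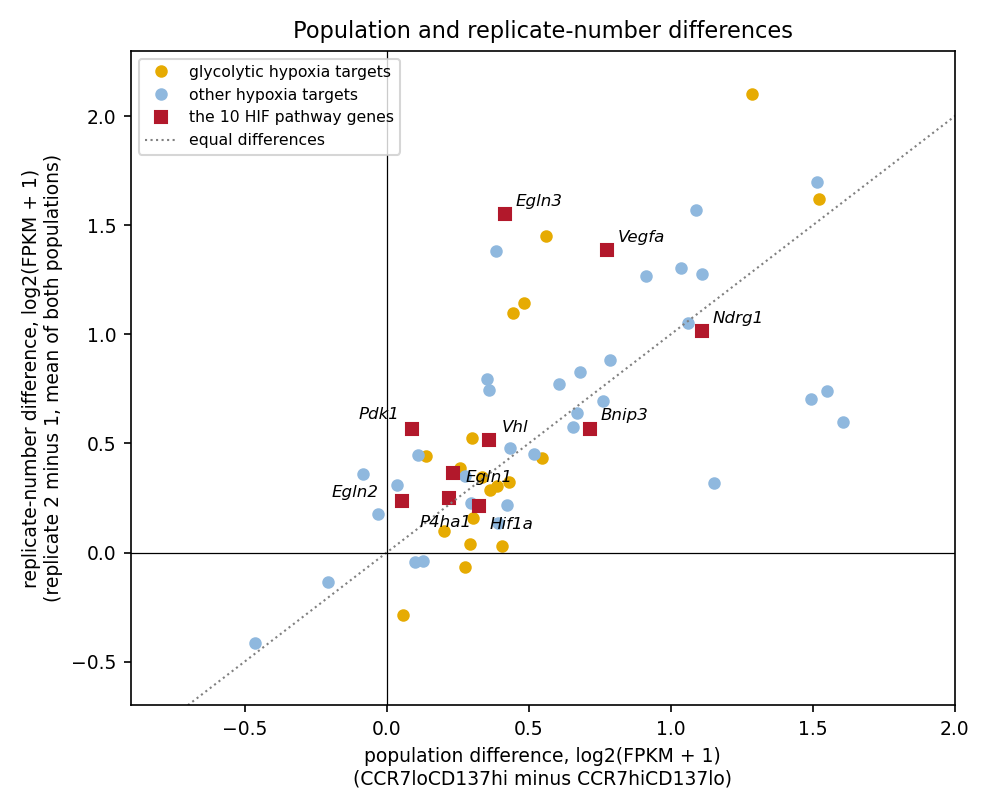
Difference between populations (x axis, CCR7loCD137hi minus CCR7hiCD137lo) and between replicate numbers (y axis, 2 minus 1, mean of both populations), both on the log2(FPKM + 1) scale. Squares are the 10 genes and circles other hypoxia targets. Egln3 lies farthest above the dotted line of equal differences among the squares, at 0.42 on the x axis and 1.55 on the y axis.

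Among other genes of the machinery none was called by limma. Of the genes for HIF subunits, Arnt, the shared partner, stood at 9.75 and 11.3 FPKM in CCR7loCD137hi and at 9.01 and 10.3 FPKM in CCR7hiCD137lo. Hif3a, an alpha subunit whose splice forms can restrain HIF, stood at 0.395 and 2.61 FPKM in CCR7loCD137hi and at 0.0936 and 1.24 FPKM in CCR7hiCD137lo, and in each population the library numbered 2 was the high one. The value of 0.0936 FPKM is under the 0.145 FPKM that 3 fragments on 1 kb would give in that library. The other subunit genes, Epas1 and Arnt2, were too low to test, with means of 0.737 and 0.185 FPKM. Among 11 genes of hydroxylation and degradation none was called, with a median log2 fold change of 0.08. The elongin genes Tceb2 and Tceb1, which link VHL to its ligase, had log2 fold changes of 0.08 and 0.10. Os9, a gene of protein quality control, had 0.19. Siah2, a ubiquitin ligase that can degrade EGLN proteins, stood at 12.8 and 14.7 FPKM in CCR7loCD137hi and at 8.06 and 8.76 FPKM in CCR7hiCD137lo, so that the groups did not overlap (log2 fold change 0.65, SE 0.145, limma adjusted p = 0.440). Its relative Siah1a had the opposite order, at 4.43 and 5.26 against 6.72 and 6.59 FPKM. Reads can be shared with the near-identical Siah1b, which stood at 5.85 and 4.08 against 4.29 and 3.59 FPKM. How reads were divided between Siah1a and Siah1b was not tested. Of 6 tested coactivators and restraints none was called (median log2 fold change 0.25). In 4 of them both CCR7loCD137hi libraries were on top, against 16.6% of all genes, and in 1, the coactivator gene Crebbp, both were lowest, against 21.5%. Cited2, which competes with HIF for the coactivator p300, stood at 18.6 and 34.1 FPKM in CCR7loCD137hi and at 14.2 and 18.2 FPKM in CCR7hiCD137lo. Ep300, the coactivator gene itself, had a log2 fold change of 0.38. The chaperone genes Hsp90ab1 and Hsp90aa1 had 0.28 and 0.22, and Gnb2l1, the RACK1 gene, 0.19, with −0.033 for Gnb2l1 after quantile normalization.

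Hypoxia targets outside the 10 genes were mostly higher in CCR7loCD137hi, and limma called none in the fit without a replicate term. All 19 glycolytic targets were higher in CCR7loCD137hi within both numbers, against 33.0% of all genes, and in 9 of them the CCR7loCD137hi libraries were the 2 highest, against 16.6% of all genes. Their median log2 fold change was 0.36, 0 were called by limma and 2 had an unadjusted p under 0.05, against 8.13% of all genes. The neuronal-type glucose transporter gene Slc2a3 stood at 88.3 and 248.1 FPKM in CCR7loCD137hi and at 27.2 and 94.4 FPKM in CCR7hiCD137lo, and its log2 fold change was 1.52 with an SE of 0.770 (limma adjusted p = 0.713). It was 0.64 without CCR7hiCD137lo replicate 1 and 2.40 without CCR7hiCD137lo replicate 2. The enolase gene Eno2 stood at 17.4 and 57.8 against 4.62 and 31.3 FPKM, again with both libraries numbered 2 on top within their populations. Its log2 fold change of 1.29 was 0.026 without CCR7hiCD137lo replicate 1 and 2.55 without CCR7hiCD137lo replicate 2. The most expressed targets had narrower spans. Ldha stood at 1811 and 1684 against 1459 and 1428 FPKM, and Aldoa at 1350 and 1706 against 1053 and 1276 FPKM. Pgk1 stood at 1117 and 1401 against 891.4 and 1061 FPKM. The log2 fold changes of Ldha, Aldoa and Pgk1, 0.27, 0.39 and 0.36, were 0.098, 0.19 and 0.20 after quantile normalization. Many glycolytic genes have processed pseudogenes that can take part of their reads, so their levels are uncertain, above all that of Eno1, which has a near-identical copy and stood at 7.49 and 16.3 against 4.60 and 12.4 FPKM.

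Of 33 tested targets with other functions, 27 were higher in CCR7loCD137hi within both numbers and 3 lower, against 33.0% and 35.9% of all genes. Their median log2 fold change was 0.52, 0 were called by limma and 6 had an unadjusted p under 0.05, against 8.13% of all genes. Bhlhe40, a repressor that shapes T cell cytokine production, stood at 69.5 and 96.4 FPKM in CCR7loCD137hi and at 20.1 and 34.1 FPKM in CCR7hiCD137lo (log2 fold change 1.61, SE 0.309, limma adjusted p = 0.374). Cxcr4, a chemokine receptor gene, stood at 10.96 and 18.4 FPKM in CCR7loCD137hi and at 2.97 and 5.81 FPKM in CCR7hiCD137lo (1.55, SE 0.371, limma adjusted p = 0.462). Neither gene had overlapping groups. Fam162a, a mitochondrial protein gene, stood at 363.3 and 497.0 against 264.0 and 374.7 FPKM, and the cytokine gene Mif at 931.6 and 860.5 against 826.1 and 843.3 FPKM, with a log2 fold change for Mif of 0.10 that became −0.053 after quantile normalization. The transferrin receptor gene Tfrc had the opposite order, at 254.2 and 191.5 FPKM in CCR7loCD137hi and 352.5 and 263.7 FPKM in CCR7hiCD137lo. Chosen after their values were seen, P4ha2, Bnip3l and Ero1l are relatives or functional partners of the members. P4ha2, a paralog of P4ha1, stood at 14.4 and 34.4 against 7.20 and 14.4 FPKM, and Bnip3l, the relative of Bnip3, at 45.8 and 72.0 against 30.1 and 43.2 FPKM. Ero1l, an oxidase of protein folding, stood at 84.4 and 249.3 against 48.5 and 101.8 FPKM. A further 6 listed genes were too low to test, among them Car9 and Adm, with means of 0.533 and 0.509 FPKM.

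**Figure D5:**
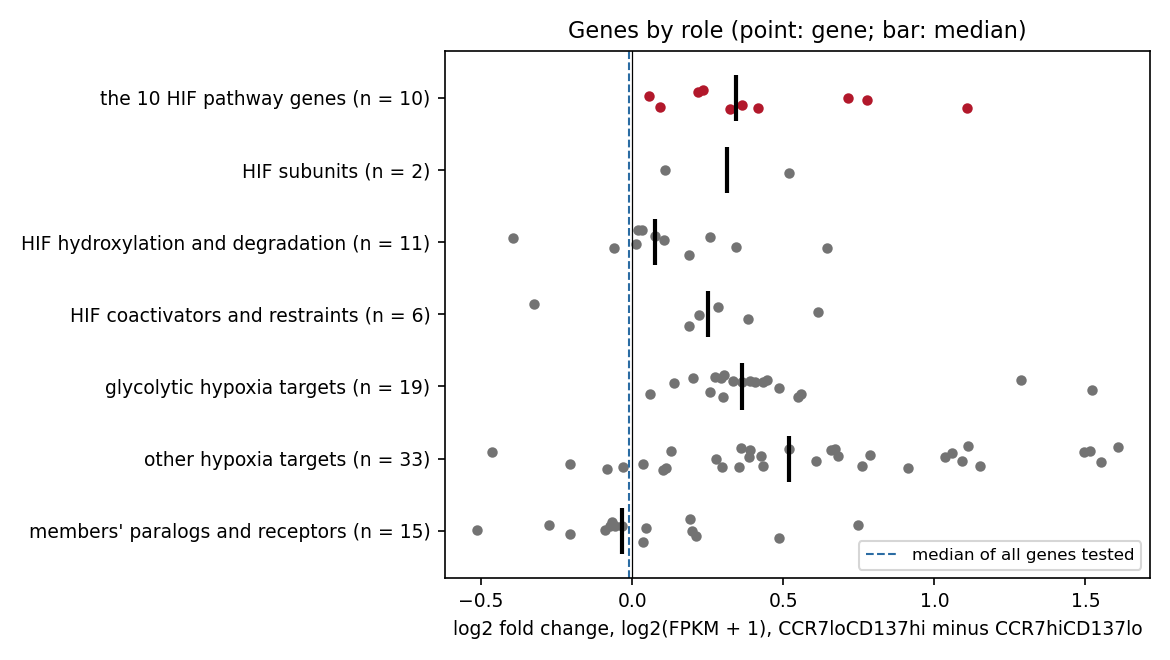
Log2 fold changes, CCR7loCD137hi minus CCR7hiCD137lo on the log2(FPKM + 1) scale, of the 10 genes and of other pathway genes by role. Points are genes, black bars medians and the dashed line the median of all genes tested, −0.01. The medians are 0.34 for the 10 genes, 0.36 for glycolytic targets, 0.52 for other targets and −0.03 for paralogs and receptors.

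Paralogs and partners of the members, listed without P4ha2 and Bnip3l, had no common direction. P4ha2 and Bnip3l were counted among the targets above and were higher in CCR7loCD137hi. Of 15 tested paralogs, partners and receptors, 7 were fitted above 0 and 8 below, near the 47.9% of all genes tested above 0. Their median log2 fold change was −0.03 and none was called. P4hb, the disulfide isomerase that forms the second subunit of collagen prolyl hydroxylase, stood at 329.1 and 370.9 FPKM in CCR7loCD137hi and at 196.2 and 220.0 FPKM in CCR7hiCD137lo (log2 fold change 0.75, SE 0.131, limma adjusted p = 0.346), 1.68-fold in number 1 and 1.69-fold in number 2. Ndrg3, a paralog of Ndrg1, had the opposite order, at 22.1 and 18.7 against 34.9 and 24.9 FPKM. Pdha1, the subunit of pyruvate dehydrogenase that PDK1 phosphorylates, stood at 48.1 and 54.8 FPKM in CCR7loCD137hi and at 62.7 and 61.9 FPKM in CCR7hiCD137lo, the reverse order of Bnip3 or Ndrg1. Bnip2, another gene for a BCL2-interacting protein, was at 51.9 and 48.1 against 51.4 and 50.9 FPKM. The VEGF receptor gene Flt1 was listed at 0 in every library, as were Pdk4 and P4ha3.

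The genes nearest to Hif1a in pattern, by the root mean square difference of centred log2(FPKM + 1) over the 4 libraries among 7872 genes with a mean of at least 5 FPKM, were Tbc1d2b (0.0182), Dlgap4 (0.0327) and Birc2 (0.0333). Nearest to Egln3 were Hacl1 (0.0962), the aldolase gene Aldoc (0.128), itself one of the glycolytic targets, and Axl (0.143). Aldoc stood at 58.7 and 139.2 FPKM in CCR7loCD137hi and at 33.8 and 109.6 FPKM in CCR7hiCD137lo, with the libraries numbered 2 high as for Egln3. With 4 libraries and this many candidates close matches are easily found, and these values only describe likeness.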

How the data were processed

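The authors deposited 1 table of FPKM per library, 4 in all, with 23746 entries each, laid out per the file headers as a gene table of Cufflinks. TRIzol extraction and the TruSeq Stranded mRNA kit were used per the labels' protocols. Build mm10, Cufflinks 2.0.2, TopHat 1.3.2 and Bowtie 0.12.8 are named in no stated order, per the submitters' processing notes. Not given in the sources used here are the annotation, filters, scaling between libraries and use of strand.

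For 240 repeated symbols, none of them a member, the entry with the highest mean was kept. Starts were raised by 1 to be 1-based. Depth was estimated from low values of genes with a single exon, assuming fragments of 200 nt, and is approximate. Genes with a mean of at least 1 FPKM were tested with limma 3.58.1 (R 4.3.3) on log2(FPKM + 1) (variance trend, two-sided, Benjamini-Hochberg over all 10496 genes, 2 residual and 2.54 prior degrees of freedom). Tables and plots used pandas 2.3.3, numpy 2.4.6 and matplotlib 3.10.9 under Python 3.11.15. The members and gene lists were chosen with earlier results of these data known, so the lists are described by counts and medians and were not tested as sets. In each pathway role the 3 most expressed tested genes, the 2 with the largest fold change and any called gene were named, and for Hif1a and Egln3 the 3 genes nearest in pattern. Alternatives were the pseudocount, the filter, the scaling between libraries, the variance trend, repeated symbols, a replicate block and leaving out each library. Promoters came from RefSeq and gene overlaps from GENCODE M21. One listed marker gene is not reported here.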

Additional observations from a re-analysis of the deposited data

How the results depend on the processing

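In none of 12 alternatives was any of the 10 genes called by limma, and the lowest adjusted p was 0.0720 (Bnip3, replicate block). The count of genes called, 6 in the main design, was 2 without a variance trend, 2 with quantile normalization, 1 with no filter on low values, and 12 to 30 when 1 library was left out, fits that leave 1 library in its group and assume that it varies like the others. The median log2 fold change of the 10 genes, 0.34, was 0.36 with a pseudocount of 0.1, 0.32 with quantile normalization, 0.29 with FPKM rescaled without short RNA genes, and 0.048 to 0.58 over left-out libraries, with 7 to 10 genes fitted above 0. That count was added after the data were seen. Left-out libraries gave log2 fold changes of −0.075 to 0.19 for Egln2, −0.38 to 1.21 for Egln3, −0.32 to 0.50 for Pdk1, −0.17 to 1.21 for Hif3a, −0.086 to 0.020 for Bnip2, −0.37 to 1.05 for Hacl1, −0.27 to 1.39 for Aldoc and −0.35 to 1.38 for Axl, each with a turn of sign. Quantile normalization turned Gnb2l1 (−0.033) and Mif (−0.053). A fit without 1 library holds the replicate numbers unequally, so the difference between numbers enters its log2 fold change. The cause of the turns after quantile normalization was not tested. Depth limits the low genes, such as Hif3a, near the floor of 0.145 to 0.474 FPKM for 1 kb.

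The labels do not say that the replicate numbers pair the libraries. Deviations of same-numbered libraries from their group means correlated at 0.214 across the genes tested. With a replicate block (1 residual degree of freedom) limma called 42 genes. Of the 10 genes 0 were called, with adjusted p from 0.0720 to 0.753. Slc2a3, Bhlhe40 and Cxcr4 passed (log2 fold changes 1.52, 1.61 and 1.55, adjusted p = 0.0471, 0.0445 and 0.0445).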
